A study of Mus musculus with 4 samples.

Results

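Transcript levels in an embryonic liver at E15.5 were set against those in a whole embryo at E11.5 (E marks the embryonic day) over one stretch of the mouse genome. The stretch was chosen by position, as chromosome 12 from 11.7 Mb to its end and chromosome 13 up to 44.7 Mb, which the values of the other embryo library do not reach. It holds 1619 of the 33783 gene symbols of the series. Of these, 538 reached 1 FPKM in at least 1 of the libraries compared and are called counted genes here. FPKM divides the fragments of an isoform by its length in kilobases and by the mapped fragments of its library, so that levels of different genes can be set side by side.

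The series holds 4 RNA-seq libraries on knockouts of Adar1, which encodes an enzyme that edits adenosine in double-stranded RNA, and of Mavs, which encodes the adaptor through which the cytoplasmic RNA sensors signal. The liver library compared here is labelled Adar1-/- and Mavs-/-, with strain C57B6/J. The embryo library carries the same genotype labels, with strain C57B16/N. A further embryonic liver library, labelled Adar1-/- alone, E15.5 and C57B6/J, was used beside them and is called the other liver library. The embryo library labelled Adar1-/- alone does not cover these loci. Each group is 1 library, no wild-type library was analysed here, and tissue, stage and strain label differ together, so their parts in a difference cannot be told apart. No p-value was computed. The difference between the liver libraries over the same genes stands in for a measure of how far libraries of one tissue lie apart.

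The fetal liver is both a gland and a blood-forming organ: its hepatoblasts begin to secrete plasma proteins while red cell precursors, megakaryocytes and white cells mature among them. Chromosome 12 holds the Serpina cluster, whose genes encode plasma protease inhibitors and hormone carriers that hepatocytes secrete. Chromosome 13 holds the main cluster of replication-dependent histone genes, and both chromosomes hold transcription factor genes that pattern the head, limbs and nervous system of the embryo. In bulk RNA, fewer cells of a type and less RNA per cell cannot be told apart.

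The libraries carried the markers of their labelled tissues. In the liver library the hepatocyte markers albumin (Alb) and alpha-fetoprotein (Afp) stood at 6648 and 3195 FPKM. On the loci that both libraries cover, 5 hepatocyte markers summed to 1296 FPKM in the liver library, 1175 in the other liver library and 18.1 in the embryo library, and 4 neural markers to 4.37, 8.51 and 173 FPKM. Some of them are genes of the region, so the sums are not independent of the results below. In the liver library Serpina1b and Serpina6 held 652 and 438 FPKM of the first sum. In the embryo library Tubb2b and Sox11 held 139.9 and 25.0 FPKM of the second. Of the other hepatocyte markers Apoh stood at 162, 159 and 0 FPKM in that order. Vtn was at 44.9, 162 and 11.8 FPKM and Asgr1 at 0.311, 0 and 0.164. Of the other neural markers Fabp7 was at 0.328, 1.73 and 8.51 FPKM and Nrcam at 0. The muscle markers summed to 1.16 FPKM in the liver library and 64.9 in the other liver library, and the part of this difference in the results was not tested. Of the targeted genes, which lie on other chromosomes, 3 of 8 reference isoforms of Adar were above 0 in the liver library, whose label is Adar1-/-, with 2.81 FPKM in all, and 0 of 8 in the other liver library. With assembled isoforms added, Adar stood at 4.11 and 5.56 FPKM in the same order. Mavs stood at 6.82 FPKM in the liver library, labelled Mavs-/-, and at 4.79 FPKM in the other. Values summed over a gene do not show whether a knockout allele still yields RNA, so groups are named by their labels throughout. Coverage per FPKM, which rises with depth, was 7.13 in the liver library, 8.58 in the other liver library and 5.62 in the embryo library. For read totals, nothing was given in the sources used. The median distance from a value to its deposited confidence bound, for genes of at least 5 FPKM, was 3.92%, 3.72% and 5.74% of the value in the same order. These bounds cover the estimate within a library and not the spread between animals.

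Differences are given as the log2 ratio of the liver over the embryo library, with 1 FPKM added to each after the liver values had been multiplied by 1.12. That factor set to 0 the median log2 ratio of 666 genes of at least 5 FPKM in both libraries over all loci they share. On this scale an absolute value of 1 or more is called 2-fold, and ratios of low genes are understated. Of the 538 counted genes, 203 (37.7%) were at least 2-fold higher in the liver library, 155 (28.8%) at least 2-fold lower and 180 lay within 2-fold. Their median log2 ratio was 0.25. With each library divided by its FPKM sum instead, 134 were higher and 213 lower, which moves the share of higher genes among the 2-fold ones from 56.7% to 38.6%. Deposited bounds did not overlap for 187 of the genes higher in liver (203) and 144 of those lower (155). A value of exactly 0 carried bounds of 0, so any lower bound above 0 in the opposite library left the pair apart. Such zeros affect 49 of the 203 and 55 of the 155, and for them separate bounds say nothing about how sure the difference is. With the other liver library over the same embryo library, 198 of the 538 genes (36.8%) were 2-fold higher and 129 (24%) lower. Between the liver libraries 36 of the same genes (6.69%) were 2-fold higher in the library labelled Adar1-/- Mavs-/- and 42 (7.81%) lower, or 78 (14.5%) in either direction, against 358 (66.5%) between liver and embryo. These shares are not on an equal footing, as the other liver library had no part in choosing the genes. Genes of at least 1 FPKM in it alone, such as Gcnt2 (1.91 FPKM), are left out. Those below 1 FPKM in the liver library cannot be 2-fold higher in it on this scale.

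Chromosome 12 and the start of chromosome 13 differed in their balance. On chromosome 12, 144 of 365 counted genes were higher in the liver library and 104 lower, with a median log2 ratio of 0.42. On chromosome 13 the numbers were 59 higher and 51 lower of 173, with a median of 0.01. The Hist1 histone genes made up 49 of those 173, and without them 59 of 124 were higher and 22 lower, with a median of 0.92. On the other loci that both libraries cover, 488 of 1624 counted genes (30%) were higher and 553 (34.1%) lower, or 1041 (64.1%) in either direction.

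**Figure D1:**
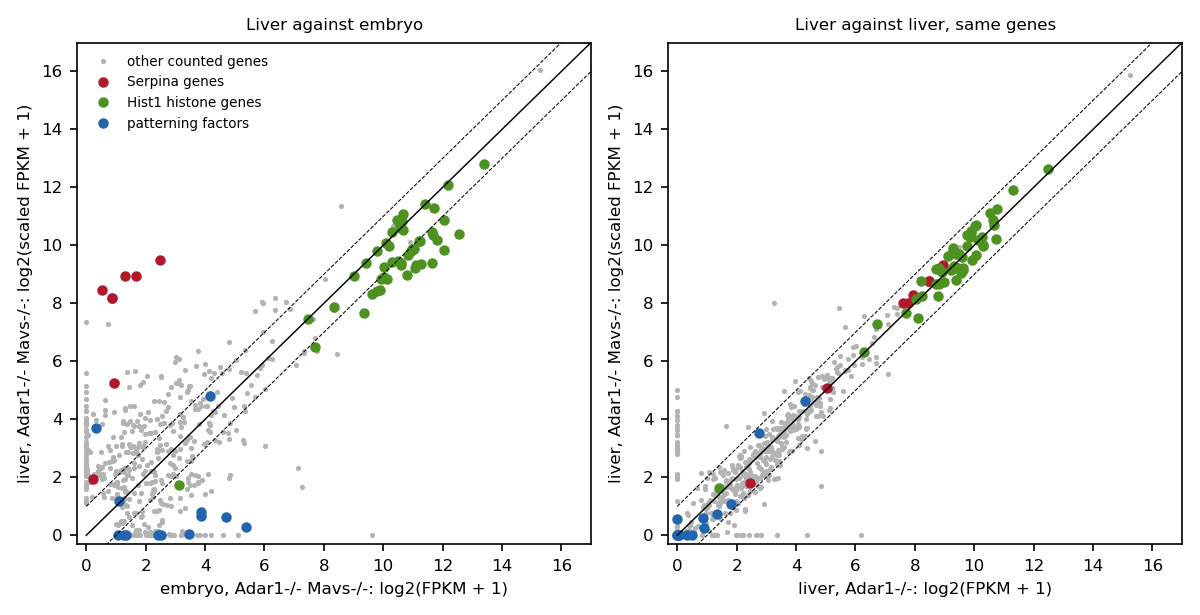
Each point is 1 of the 538 counted genes, placed by log2(FPKM + 1), with the liver library on the vertical axis and the embryo library (left) or the other liver library (right) on the horizontal axis; solid lines mark equal scaled levels and dashed lines a 2-fold difference. The Serpina genes stand far above the dashed lines on the left and near the solid line on the right, the patterning factors lie mostly below the lines on the left, and 78 genes lie outside them on the right against 358 on the left.

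Among genes above 0 in both libraries, those that stood highest in liver relative to embryo were Serpina genes of distal chromosome 12. Of the genes at 0 in the embryo library, the small nuclear RNA Gm25577 had a log2 ratio of 7.38. Serpina1a to Serpina1e encode alpha-1-antitrypsin isoforms, the plasma inhibitors of neutrophil elastase. Serpina6 encodes corticosteroid-binding globulin, Serpina10 the inhibitor of coagulation factor X that acts with protein Z, and Serpina11 a less studied secreted serpin. Of 28 Serpina genes in the region 8 were counted, 5 of them through the liver library alone, and all 8 were at least 2-fold higher in the liver library, with a median log2 ratio of 7.29 against 0.25 over all counted genes. With the other liver library the median over the same 8 genes was 6.98, and those 8 stood at least 2-fold above the embryo library. The 20 Serpina genes that were not counted reached at most 0.381 FPKM in the liver library and 0.212 FPKM in the embryo library.

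A 62-base stretch of promoter shows how alike the Serpina1 genes are. The sequences are from RefSeq on build GRCm38.p6, read on the minus strand from 5′ to 3′, and the capitals mark a 13-base block, GGTTAATATTCAC, that all 5 promoters share. The block is GTTAAT with 1 base before and 6 after it; GTTAAT is the half-site of HNF1 factors, which are transcription factors of hepatocytes. The stretches lie at chr12:103863625-103863686 (Serpina1a), chr12:103738200-103738261 (Serpina1b), chr12:103904962-103905023 (Serpina1c), chr12:103773634-103773695 (Serpina1d) and chr12:103956960-103957021 (Serpina1e).
Serpina1a: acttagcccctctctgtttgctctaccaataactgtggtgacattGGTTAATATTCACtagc
Serpina1b: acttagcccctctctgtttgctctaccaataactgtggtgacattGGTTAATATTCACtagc
Serpina1c: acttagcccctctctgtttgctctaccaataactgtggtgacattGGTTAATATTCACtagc
Serpina1d: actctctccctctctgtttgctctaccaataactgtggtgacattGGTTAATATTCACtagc
Serpina1e: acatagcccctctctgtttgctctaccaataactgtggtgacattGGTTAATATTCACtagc
The stretches of Serpina1a, Serpina1b and Serpina1c are identical, that of Serpina1d differs from them at 4 bases and that of Serpina1e at 1. The block begins 22, 27, 28, 17 and 79 bases before the annotated start in Serpina1a to Serpina1e, in that order. It was chosen from these promoters themselves, and of 32851 RefSeq promoters, searched on both strands over the 250 bases before the start, 5 hold it, those of the 5 Serpina1 genes. GTTAAT alone, which overlaps the block, occurs in 2113 of them (6.43%). Neither promoter entry of Serpina11 holds GTTAAT, which says only that these letters are not in that window. Serpina6 and Serpina10 have no entry in the promoter table.

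All positions from here on are those of the deposited values on build mm9, which are not comparable with the promoter coordinates above. Serpina1b (chr12:104966366-105104137) stood at 652 FPKM in the liver library, 498 in the other liver library and 4.63 in the embryo library. Serpina1a (chr12:105091799-105101772) was listed at 437, 353 and 2.17 FPKM in the same order, and Serpina1c (chr12:105133136-105143097) at 312, 243 and 0.440 FPKM. Both liver libraries were high and the embryo library was low in each case, and no bounds overlapped. The log2 ratios of the liver over the embryo library were 7.02 for Serpina1b, 7.27 for Serpina1a and 7.93 for Serpina1c. The last was the highest in the region over reference isoforms, among genes above 0 in both libraries, but it was 6.68 over all isoforms, below Serpina6 and the other 4 Serpina1 genes.

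Serpina1e (chr12:105185141-105197185) stood at 260.1 FPKM in the liver library, 216 in the other liver library and 0.811 in the embryo library. Serpina1d (chr12:105001804-105011802) was at 258, 193 and 0.824 FPKM. Their log2 ratios were 7.33 and 7.31. These genes are near copies of each other: of the 50-base words in their annotated transcripts, 57.6% in Serpina1a, 29.5% in Serpina1b, 74.2% in Serpina1c, 50.9% in Serpina1d and 34.6% in Serpina1e also occur in transcripts of other genes. How reads were split among them is therefore uncertain, as is the order of their levels. The pseudogene Gm8893 between them was listed at 139 FPKM in the liver library, 103 in the other liver library and 0.651 in the embryo library, and 59.0% of its words occur in other genes.

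Serpina6 (chr12:104884840-104895422) shares none of its words with other genes. It stood at 438 FPKM in the liver library, 356 in the other liver library and 1.46 in the embryo library, a log2 ratio of 7.64. Counting only isoforms whose deposited status is OK its log2 ratio was -1.30, so this value rests on isoforms of another status. Serpina10 (chr12:104854885-104869654), with 1.47% shared words, was at 33.6, 31.7 and 0.903 FPKM, a log2 ratio of 4.34. No ratio over isoforms of status OK exists for it. Serpina11 (chr12:105218461-105228151), with 35.7% shared words, was the least abundant, at 2.56, 4.42 and 0.170 FPKM, a log2 ratio of 1.73 that was 0.75 over isoforms of status OK. The levels of the 8 counted Serpina genes thus ran from 2.56 to 652 FPKM in the liver library, while none passed 4.63 FPKM in the embryo library.

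The 8 genes lie within 373267 bases (chr12:104854885-105228151), and their FPKM summed to 2393 in the liver library, 1895 in the other liver library and 11.4 in the embryo library. Within 500000 bases on either side, 7 other genes were counted, and 4 of them were 2-fold higher in the liver library: the pseudogene Gm8893, Otub2, Ifi27 and Ifi27l2a. The other neighbours were Ddx24, Gsc and Asb2. Ddx24, an RNA helicase, stood at 11.8 FPKM in the liver library and 12.97 in the embryo library, a log2 ratio of 0.02. Gsc, a homeobox factor of the early organizer and the craniofacial mesenchyme, was listed at 0 in the liver library, 0.0397 FPKM in the other liver library and 4.74 in the embryo library. Asb2, a subunit of a ubiquitin ligase of muscle and blood cells, was listed at 0, 1.27 and 3.12 FPKM in the same order, and over all isoforms its log2 ratio was -0.87. Otub2, a deubiquitinase, stood at 4.95, 9.85 and 0.887 FPKM, a log2 ratio of 1.79 for the liver library that was 0.44 over all isoforms. Ifi27 is described with the interferon genes, and Ifi27l2a was listed at 1.09 FPKM in both liver libraries and 0 in the embryo library.

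**Figure D2:**
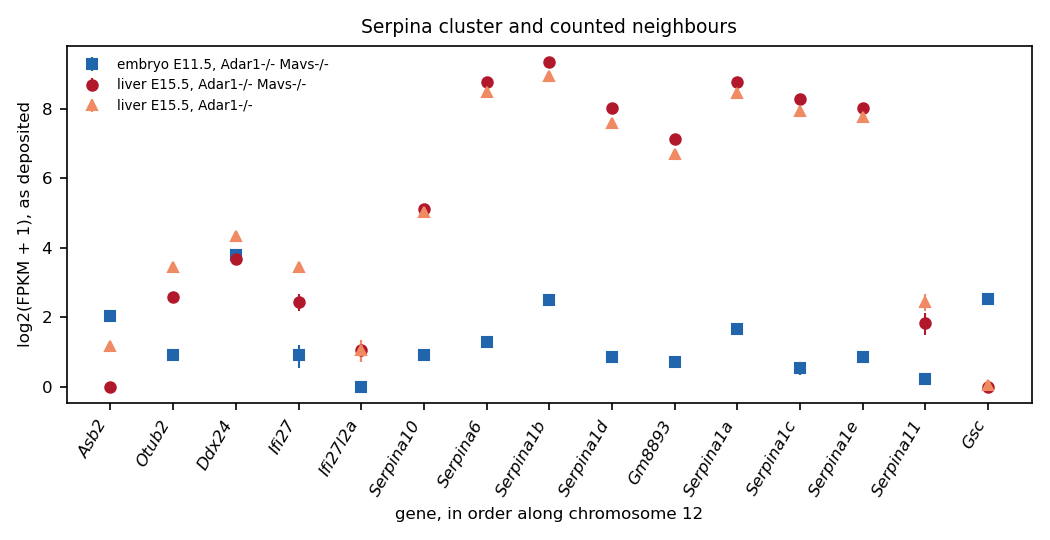
Vertical positions give log2(FPKM + 1) as deposited for the counted Serpina genes and their counted neighbours in order along chromosome 12, for the embryo library (squares), the liver library (circles) and the other liver library (triangles); vertical lines are the deposited bounds. The liver symbols of Serpina10 to Serpina1e lie far above the squares, while Ddx24 has all 3 symbols close together and Gsc has the square on top.

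Genes of hepatocyte metabolism were also mostly higher in the liver library. Of the 41 on the list 30 were counted, 12 of them through the liver library alone and 2 through the embryo library alone. Of the 30, 20 were at least 2-fold higher in the liver library, 3 lower and 7 within 2-fold, with a median log2 ratio of 1.65, and with the other liver library 20 were higher and 2 lower, with a median of 1.497. Over all counted genes 37.7% were higher in the liver library and 28.8% lower. Those shares apply beside the counts of every list below, many of which hold few genes. Pygl, the liver glycogen phosphorylase (chr12:71291798-71332475), stood at 30.1 FPKM in the liver library, 36.7 in the other liver library and 1.73 in the embryo library, a log2 ratio of 3.67. Aldh6a1, an aldehyde dehydrogenase of valine breakdown, was at 16.1, 16.003 and 0.906 FPKM, a log2 ratio of 3.32. Gstz1, an enzyme of tyrosine breakdown, was at 53.4, 39.4 and 15.2 FPKM, a log2 ratio of 1.91. Each of these was high in both liver libraries.

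Enzymes of lipid and steroid metabolism stood among the same genes. The aldo-keto reductase genes of proximal chromosome 13 encode enzymes that reduce steroids and other carbonyls. Akr1c13 stood at 34.1 FPKM in the liver library, 28.6 in the other liver library and 1.04 in the embryo library, a log2 ratio of 4.27. Akr1c19 was at 13.3, 12.3 and 0.248 FPKM, and Akr1c12 at 5.63, 5.10 and 0.0909 FPKM. Akr1c13 and Akr1c12 share 24.2% and 28.6% of their words with other genes and Akr1c19 4.14%. Idi1, an isomerase of the mevalonate pathway, was at 17.04, 14.0 and 0.557 FPKM, with a log2 ratio of 3.69 that was 2.24 when assembled isoforms were added. Elovl2, an elongase of long polyunsaturated fatty acids, was at 12.8, 16.3 and 1.34 FPKM, a log2 ratio of 2.71. Agmo, which cleaves ether lipids, was at 6.05, 5.07 and 0.0328 FPKM.

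The transporter gene Slc17a3, which encodes an organic anion and phosphate carrier, differed between the liver libraries: it stood at 3.47 FPKM in the liver library, 0.730 in the other liver library and 0.0103 in the embryo library. Hfe, which encodes the upstream regulator of hepcidin, was at 4.28, 2.59 and 0.717 FPKM, a log2 ratio of 1.75. Mthfd1, an enzyme of folate metabolism, was at 16.4, 24.5 and 5.40 FPKM, a log2 ratio of 1.60. On the other side, Npc2, a lysosomal carrier of cholesterol, stood at 9.66 FPKM in the liver library, 11.1 in the other liver library and 23.3 in the embryo library, a log2 ratio of -1.04 that was -0.81 with the other liver library. Acot1, a cytosolic acyl-CoA thioesterase, and Coq6, a monooxygenase of ubiquinone synthesis, were listed at 0 in both liver libraries and at 13.1 and 14.9 FPKM in the embryo library.

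Of the 6 listed genes of red cells and heme 5 were counted, 3 were at least 2-fold higher in the liver library and none was lower, with a median log2 ratio of 1.06. Sptb, the beta spectrin of the red cell membrane skeleton (chr12:77681475-77811534), stood at 60.4 FPKM in the liver library, 74.1 in the other liver library and 7.68 in the embryo library, a log2 ratio of 2.98. Plek2, a pleckstrin that acts in late erythroid maturation, was at 31.7, 22.4 and 2.48 FPKM, a log2 ratio of 3.39. Tmem14c, a mitochondrial carrier of heme synthesis, was at 115, 97.5 and 61.4 FPKM, a log2 ratio of 1.06 that was 0.87 with the other liver library. Glrx5, a glutaredoxin of iron-sulfur cluster assembly, was at 61.1, 102 and 68.6 FPKM, a log2 ratio within 0.01 of 0 and not beyond the bounds. Of the red cell markers outside the region, band 3 (Slc4a1) moved with the higher genes, at 1335 FPKM in the liver library and 23.8 in the embryo library, while the primitive red cell globin Hba-x ran the opposite way, at 9.61 and 852 FPKM. Their part in the values was not tested.

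Genes of white cells and platelets were split. Of 27 on the list 24 were in the tables and 16 were counted, 8 through the liver library alone. Of the 16, 10 were 2-fold higher in the liver library and 3 lower, with a median log2 ratio of 1.66, and with the other liver library 7 were higher and 2 lower, with a median of 0.69. F13a1, the A subunit of coagulation factor XIII, made by platelets and macrophages, stood at 10.04 FPKM in the liver library, 10.9 in the other liver library and 1.91 in the embryo library, a log2 ratio of 2.07. Serpinb1a, an intracellular inhibitor of neutrophil proteases, was at 8.97, 8.19 and 0.0499 FPKM, a log2 ratio of 3.396. Prkar2b, a regulatory subunit of protein kinase A, was at 29.8, 15.9 and 6.21 FPKM, a log2 ratio of 2.26 that was -2.85 over isoforms of status OK. Ighm, the immunoglobulin heavy chain of B cells, was at 2.94, 1.41 and 0.194 FPKM.

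Not every white cell gene was higher in the liver library. Evl, an actin regulator of the Ena/VASP family, stood at 2.82 FPKM in the liver library, 4.39 in the other liver library and 12.5 in the embryo library, a log2 ratio of -1.70. Bcl11b, a transcription factor of T cells and neurons, was listed at 0 in the liver library and at 2.30 FPKM in the embryo library. Serpinb6a, an intracellular serpin, and Tnfaip2 were listed at 16.4 and 3.18 FPKM in the liver library and at 0 in both other libraries. Over all isoforms the log2 ratio of Serpinb6a was 0.87, under 2-fold. Macrophage lysozyme (Lyz2), a marker outside the list, stood at 104 FPKM in the liver library, 88.1 in the other liver library and 2.99 in the embryo library.

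Interferon and innate signalling genes were counted in 8 of 9 cases, 4 through the liver library alone, and 6 of the 8 were 2-fold higher in the liver library and 2 lower, with a median log2 ratio of 1.54. With at least 5 FPKM required in either library the median was -0.05. Rsad2 encodes viperin, an interferon-induced antiviral enzyme, and Cmpk2 beside it a nucleotide kinase induced with it. Rsad2 stood at 3.14 FPKM in the liver library, 5.09 in the other liver library and 0.0162 in the embryo library, a log2 ratio of 2.15. Cmpk2 was listed at 2.79, 5.11 and 0 FPKM. Both were higher in the liver library that lacks the Mavs-/- label than in the one that carries it, and lowest in the embryo library. Ripk1, a kinase of cell death and inflammatory signalling, was at 15.47, 19.2 and 2.50 FPKM, a log2 ratio of 2.39. Ifi27 was at 4.45, 9.96 and 0.874 FPKM, a log2 ratio of 1.67 that was -0.12 over isoforms of status OK. Nfkbia, the inhibitor of NF-kappa-B, was at 1.32, 2.96 and 6.11 FPKM, a log2 ratio of -1.52, which was -0.69 with the other liver library and -0.90 over all isoforms.

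**Figure D3:**
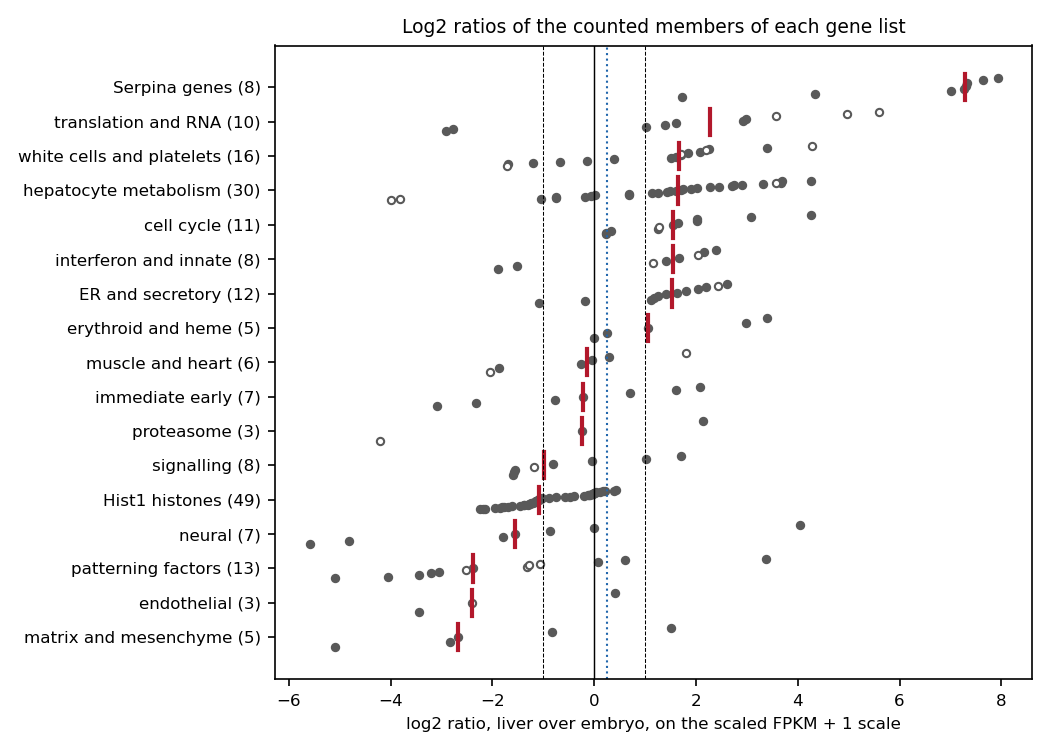
Each circle is a counted gene at its log2 ratio of the liver over the embryo library, by gene list with the number counted in brackets; open circles are genes listed at 0 in either library, red bars the list medians, the dotted line the median of all counted genes (0.25) and dashed lines a 2-fold difference. Serpina genes have the highest median (7.29), while patterning, endothelial and matrix genes have the lowest. The endothelial median rests on 3 genes, and the lists overlap in a few genes.

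Among genes above 0 in both libraries, those lowest in liver relative to embryo were led by Ckb, Twist1 and Tubb2b. Of the 13 counted patterning factors, 10 were at least 2-fold lower in the liver library. The list names 30 transcription factors of which 29 were in the tables; 10 of the 13 were counted through the embryo library alone. Their median log2 ratio was -2.39, and -1.83 with the other liver library, with which 10 were lower and 1 higher. Counting all isoforms 10 were lower as well. The 16 factors not counted reached at most 0.327 FPKM in the liver library and 0.504 FPKM in the embryo library.

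Twist1, a basic helix-loop-helix factor of cranial mesenchyme, neural crest and limb buds (chr12:34642536-34644682), stood at 0.188 FPKM in the liver library, 0.872 in the other liver library and 40.4 in the embryo library, a log2 ratio of -5.10. Sox11, an HMG-box factor of neural progenitors and mesenchyme (chr12:28025562-28027574), was listed at 0.497, 0 and 25.0 FPKM, a log2 ratio of -4.06. Sox4, its relative on chromosome 13, was at 0.665, 1.55 and 13.4 FPKM, a log2 ratio of -3.05. The liver libraries were both low and the embryo library high for all 3, with no overlap of bounds.

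Foxc1, a forkhead factor of the paraxial mesoderm and the developing eye and skull, was at 0.0200 FPKM in the liver library, 0.247 in the other liver library and 10.1 in the embryo library, a log2 ratio of -3.44. Mycn, the MYC family member of embryonic progenitors, was at 0.519, 0.847 and 13.6 FPKM, a log2 ratio of -3.20. Both were low in both liver libraries.

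Other homeobox and forkhead genes were listed at 0 in the liver library and at low values in the embryo library: Foxf2 at 1.51 FPKM, Six4 at 1.41 FPKM and Pax9, a factor of the pharyngeal pouches, at 1.09 FPKM. The exceptions were Sp4, Id2 and Hivep1. Sp4, a zinc finger factor, stood at 10.8 FPKM in the liver library, 5.69 in the other liver library and 0.264 in the embryo library, a log2 ratio of 3.37. Id2, an inhibitor of basic helix-loop-helix factors that is widely expressed, was at 23.8, 18.9 and 17.1 FPKM, a log2 ratio of 0.61.

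Of 28 listed neural genes 26 were in the tables and 7 were counted. Nrn1 was counted through the liver library alone, and Chga and Rtn1 through the embryo library alone. Of the 7, 4 were 2-fold lower in the liver library and 1 higher, with a median log2 ratio of -1.56. Ckb, the brain-type creatine kinase, which buffers ATP and is expressed beyond the brain as well (chr12:112907566-112910549), stood at 1.94 FPKM in the liver library, 4.46 in the other liver library and 152 in the embryo library. Its log2 ratio of -5.59 was the lowest in the region among genes above 0 in both libraries. Tubb2b, a beta tubulin of immature neurons (chr13:34218877-34222223), was at 3.55, 6.78 and 139.9 FPKM, a log2 ratio of -4.82. Tubb2a beside it was at 18.6, 19.9 and 38.6 FPKM, a log2 ratio of -0.86. The tubulins share 36.9% (Tubb2b) and 49.6% (Tubb2a) of their words with other genes, so the split of reads between them is uncertain.

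Chga, a granin of secretory granules in neuroendocrine cells, stood at 0.204 FPKM in the liver library, 0.520 in the other liver library and 3.22 in the embryo library, a log2 ratio of -1.78. Rtn1, a reticulon of neurons, was at 0.0775, 0.488 and 2.21 FPKM, a log2 ratio of -1.56. The neural gene that went the other way was Nrn1 (chr13:36817494-36826346), which encodes neuritin, a membrane-anchored protein that promotes neurite growth. It stood at 22.0 FPKM in the liver library, 24.8 in the other liver library and 0.550 in the embryo library, a log2 ratio of 4.05. That is among the 12 highest ratios of the region, and both liver libraries were high.

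**Figure D4:**
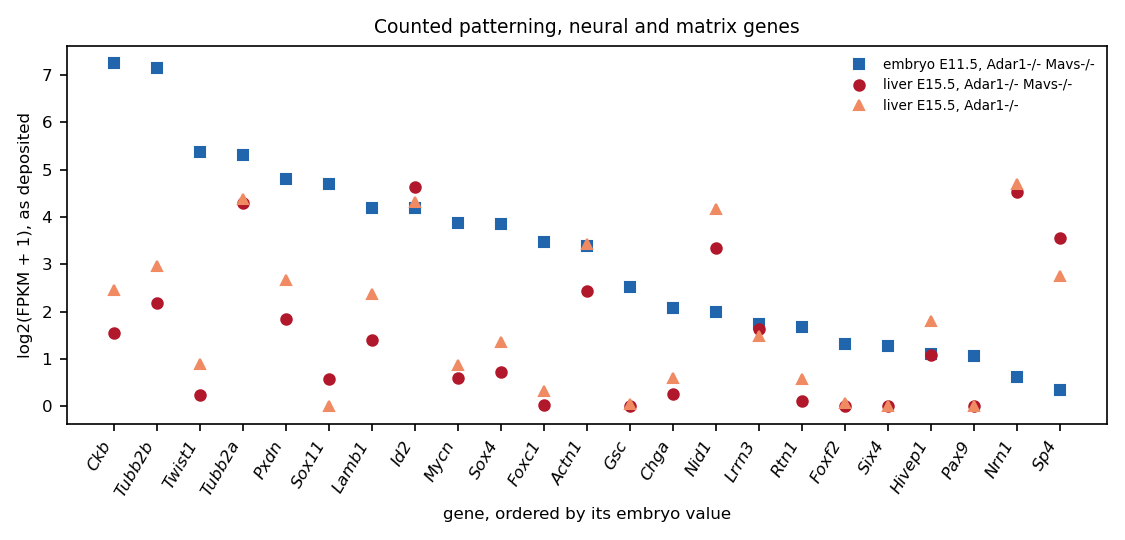
Vertical positions give log2(FPKM + 1) as deposited for the counted patterning, neural and matrix genes except 1 that is not reported here, ordered by their embryo value, for the embryo library (squares), the liver library (circles) and the other liver library (triangles). Squares lie above both liver symbols for most genes from Ckb to Pax9, with Id2, Actn1, Nid1 and Hivep1 as exceptions, while Nrn1 and Sp4 have both liver symbols above the square.

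Matrix and mesenchyme genes were counted in 5 of 11 cases, and 3 were 2-fold lower in the liver library and 1 higher, with a median log2 ratio of -2.68. Twist1 is on this list too and was the 1 gene counted through the embryo library alone. Lamb1, the laminin beta 1 chain of basement membranes, stood at 1.66 FPKM in the liver library, 4.22 in the other liver library and 17.4 in the embryo library, a log2 ratio of -2.68. Pxdn, peroxidasin, which crosslinks collagen IV, was at 2.60, 5.34 and 26.9 FPKM, a log2 ratio of -2.83. Nid1, nidogen, which links laminin to collagen IV, was at 9.16, 16.9 and 2.97 FPKM, a log2 ratio of 1.505 that was 0.79 over all isoforms, where no gene of the list was 2-fold higher. Fibroblast and matrix markers on shared loci summed to 3.97 FPKM in the liver library, 14.8 in the other liver library and 61.2 in the embryo library. Twist1, at 40.4 FPKM in the embryo library, and Lamb1 are among these markers, so the sum largely restates the list. The remaining marker, Col1a1, stood at 2.13, 9.69 and 3.42 FPKM in the same order. The part of these cells in the values was not tested.

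Signalling genes were counted in 8 of 19 cases, with 4 lower in the liver library, 2 higher and 2 within 2-fold, and a median log2 ratio of -0.99. The 4 lower genes passed the filter through the embryo library alone. With at least 5 FPKM required in either library the median was 1.03, so its direction turns on the filter. Tgfb3, a transforming growth factor beta ligand, stood at 0.733 FPKM in the liver library, 2.03 in the other liver library and 4.50 in the embryo library, a log2 ratio of -1.60, and -0.72 with the other liver library. Flrt2, a guidance receptor that also binds FGF receptors, was at 0.698, 1.203 and 4.23 FPKM, a log2 ratio of -1.55 that was -0.56 over isoforms of status OK. Dact1, a modulator of Wnt signalling, was at 0.131, 0.322 and 2.40 FPKM. Numb, an inhibitor of Notch signalling, was at 7.001, 10.5 and 1.73 FPKM, a log2 ratio of 1.70 that was 0.04 over isoforms of status OK. Hif1a, the oxygen-regulated transcription factor subunit, was at 15.4, 15.9 and 7.94 FPKM, a log2 ratio of 1.03 that was 0.04 when assembled isoforms were added.

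Muscle genes depended on which liver library was used. Of 10 listed genes 6 were counted, 1 through the liver library alone and 3 through the embryo library alone. In the liver library 2 were lower, both among those 3, and 1 was higher, the gene counted through that library alone. With the other liver library 2 were higher and none was lower. Actn2, the alpha-actinin of Z discs, stood at 0.0745 FPKM in the liver library, 2.197 in the other liver library and 2.99 in the embryo library, a log2 ratio of -1.88 and of -0.17 with the other liver library. The summed muscle markers given above, which include Actn2, differ between the liver libraries in the same direction. Among 6 endothelial genes 3 were counted, with Foxc1 on this list too, and their median log2 ratio was -2.40. The 2 lower ones, Foxc1 and Rhoj, were counted through the embryo library alone. Rhoj, a GTPase of endothelial cells, was listed at 0 in the liver library, 5.43 FPKM in the other liver library and 4.26 in the embryo library. Over all isoforms the log2 ratio of Rhoj was -0.86. Clec14a stood at 1.95, 2.69 and 1.41 FPKM in the same order, a log2 ratio of 0.40. Endothelial markers on shared loci, Clec14a among them, summed to 19.9, 15.9 and 21.0 FPKM. Dlk1, a fetal growth regulator from the imprinted Dlk1-Dio3 domain that hepatoblasts express, stood at 46.8 FPKM in the liver library (bounds 39.7 and 53.9), 135 in the other liver library and 26.9 in the embryo library. Its log2 ratio was 0.94, and 2.50 with the other liver library. It was the 1 counted gene of the 4 in the tables from that domain.

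The replication-dependent histone genes of chromosome 13 had a pattern by class. These genes are transcribed in S phase, and their mRNAs end in a stem-loop in place of a poly(A) tail. Of 51 Hist1 genes 49 were counted, all of them through both libraries; none was 2-fold higher in the liver library, 29 were lower and 20 lay within 2-fold, with a median log2 ratio of -1.09. With the other liver library 23 were lower, with a median of -0.96. The 7 H3 genes were all 2-fold lower in the liver library, as were 10 of 11 H4 and 10 of 13 H2B genes, while 2 of 6 linker histone H1 and none of 12 H2A genes were. The counts with the other liver library were 7 for H3, 10 for H4, 5 for H2B, 1 for H1 and none for H2A.

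The class medians of the log2 ratio were -1.61 for H4 (range -2.25 to -0.58), -1.15 for H3 (range -1.27 to -1.03), -1.11 for H2B (range -1.82 to -0.40), -0.29 for H1 (range -1.38 to 0.03) and 0.01 for H2A (range -0.19 to 0.43). With the other liver library over the same embryo library they were -1.33, -1.27, -0.96, -0.65 and -0.49. H4 gene values summed to 15672 FPKM in the liver library, 16144 in the other liver library and 43941 in the embryo library. H2A gene values summed to 13589, 9409 and 14006 FPKM. The embryo library was far above both liver libraries in H4, and level with the liver library in H2A.

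The gap between classes does not depend on the scaling. The H2A median exceeded the H4 median by 1.62 with the liver library and by 0.84 with the other liver library, the H3 median by 1.16 and 0.78, and the H2B median by 1.12 and 0.47. The direction of H2A itself does depend on it. The 5 other scalings shifted the log2 ratios of abundant genes, such as most histone genes, by about -0.93 to 0.29, and those of low genes by less. The H2A median of 0.01 thus takes either sign, while the medians of H4, H3 and H2B stayed negative under each. Hist1h4h, an H4 gene, stood at 820.2 FPKM in the liver library, 1065 in the other liver library and 4191 in the embryo library, a log2 ratio of -2.19. Hist1h3b, an H3 gene, was at 842, 666 and 2085 FPKM, a log2 ratio of -1.14. Hist1h2ab, an H2A gene, was at 1255, 937 and 1253 FPKM, a log2 ratio of 0.17.

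Histone genes of a class are near copies. The median share of 50-base words found in transcripts of other genes was 79.3% for H2A genes, 59.4% for H2B, 49.5% for H3, 40.4% for H4 and 1.13% for H1, so how reads were split among these genes is uncertain. For 8 of the 49 genes a deposited lower bound was 0 in either library, among them Hist1h4d, the most abundant histone gene of both libraries at 6452 and 10767 FPKM, which are part of the H4 sums above. Most of the 49 genes, and most of the H3, H4 and H2A genes, had no isoform of status OK in at least 1 of the libraries compared. The class pattern thus rests largely on isoforms of another status. Where a log2 ratio over isoforms of status OK existed, the median was -0.98. Single genes could lie far off, such as Hist1h2br at 9.32 against -0.76 and Hist1h2bp at -9.92 against -1.07.

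**Figure D5:**
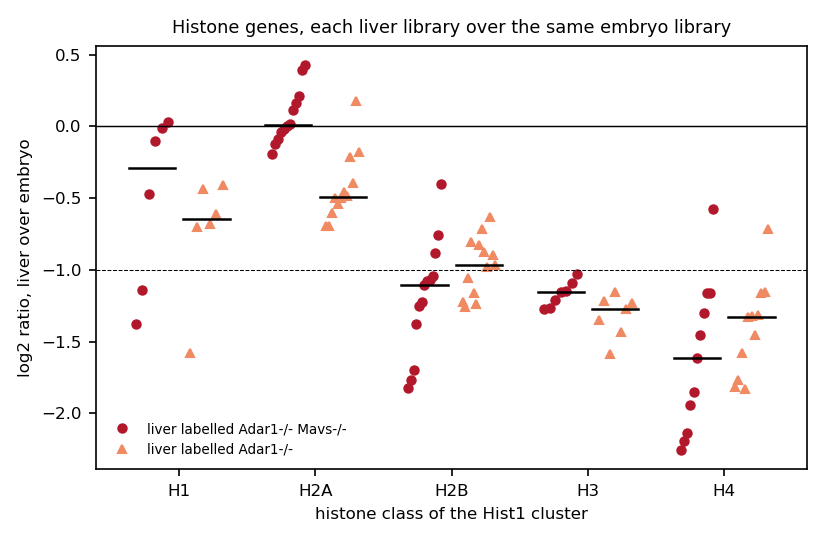
Each point is 1 Hist1 gene at its log2 ratio over the embryo library, for the liver library (circles) and the other liver library (triangles), by histone class; black bars are class medians and the dashed line a 2-fold lower level. H3, H4 and most H2B genes lie near or below the dashed line with both liver libraries, and H2A genes lie above it with both.

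Cell cycle genes outside the histone cluster stood on the other side. Of 21 listed 19 were in the tables and 11 were counted, 2 of them through the liver library alone. Of the 11, 8 were 2-fold higher in the liver library and none was lower, with a median log2 ratio of 1.55. With assembled isoforms added, 5 were higher and the median was 0.88. Rrm2, the regulated subunit of ribonucleotide reductase, stood at 44.9 FPKM in the liver library, 56.7 in the other liver library and 16.5 in the embryo library, a log2 ratio of 1.55. Ncapg2, a subunit of condensin II, was at 43.8, 31.1 and 1.60 FPKM, a log2 ratio of 4.26, and of 3.58 with assembled isoforms. The largest assembled isoform over its span held 33.0, 17.8 and 791 FPKM in the same order. The embryo value of 791 FPKM is not part of that ratio, and whether it belongs to Ncapg2 was not tested. Gmnn, geminin, which blocks relicensing of replication origins, was at 30.9, 16.7 and 10.3 FPKM, a log2 ratio of 1.66 that was 0.84 with the other liver library. Pole2, a subunit of DNA polymerase epsilon, was at 17.7, 6.64 and 1.46 FPKM, a log2 ratio of 3.08 that was 0.05 with assembled isoforms, so it rests on which isoforms are summed.

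Genes of translation and of the secretory pathway were mostly higher in the liver library when reference isoforms were summed. Of 10 translation and RNA genes 8 were 2-fold higher and 2 lower, with a median log2 ratio of 2.27, which was 0.48 with assembled isoforms added. Of the 10, 3 were counted through the liver library alone. Eif2s1, the alpha subunit of initiation factor eIF2, stood at 55.6 FPKM in the liver library, 41.0 in the other liver library and 6.96 in the embryo library, a log2 ratio of 2.99. Rps7, a ribosomal protein, was at 73.5, 59.8 and 40.2 FPKM, a log2 ratio of 1.02, and 0.77 with the other liver library. Eif2b2, a subunit of the exchange factor of eIF2, was at 6.73, 8.03 and 63.2 FPKM, a log2 ratio of -2.91. Wars, the tryptophanyl-tRNA synthetase, was at 2.87, 8.88 and 27.6 FPKM, a log2 ratio of -2.77 and of -1.35 with the other liver library.

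Of 14 genes of the endoplasmic reticulum and secretory pathway 13 were in the tables and 12 were counted, 2 through the liver library alone. Of the 12, 10 were 2-fold higher in the liver library and 1 lower, with a median log2 ratio of 1.52, and 7 were higher with assembled isoforms added. Tmx1, a thioredoxin-like oxidoreductase of the endoplasmic reticulum membrane, stood at 72.9 FPKM in the liver library, 43.3 in the other liver library and 12.6 in the embryo library, a log2 ratio of 2.61. Txndc5, a protein disulfide isomerase, was at 16.4, 29.3 and 40.2 FPKM, a log2 ratio of -1.09, and -0.24 with the other liver library. Pdia6, another of that family, was at 59.0, 61.1 and 74.6 FPKM, a log2 ratio of -0.17. Scfd1, a vesicle fusion regulator, had a log2 ratio of 1.42 with the liver library, 0.68 over all isoforms, and -1.76 with the other liver library, so its direction turns on 1 library.

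Among the remaining lists no direction prevailed. Of 7 counted immediate early and stress genes 2 were 2-fold higher in the liver library and 2 lower, with a median log2 ratio of -0.23. Of the 7, 2 were counted through the liver library alone and 2, Trib2 and Irf2bpl, through the embryo library alone. Trib2, a pseudokinase that promotes degradation of C/EBP factors, stood at 0.101 FPKM in the liver library, 1.09 in the other liver library and 8.42 in the embryo library, a log2 ratio of -3.08. Irf2bpl, a nuclear zinc finger protein, was at 0.705, 2.45 and 7.91 FPKM, a log2 ratio of -2.32. Of 3 counted proteasome genes 1 was higher, 1 lower and 1 within 2-fold, and the lower 1, Psmg4, was counted through the embryo library alone. Psma6, an alpha subunit of the proteasome core, was at 50.1, 49.0 and 11.9 FPKM, a log2 ratio of 2.14. Psmg4, an assembly chaperone of the proteasome, was listed at 0 in both liver libraries and 17.4 FPKM in the embryo library. Assembled isoforms over its span held up to 43.0 FPKM in the liver library, 21.7 in the other liver library and 50.3 in the embryo library. Over all isoforms its log2 ratio was -1.43. Acp1, a low molecular weight phosphatase on no list, was among the 12 highest ratios at 44.6, 28.1 and 2.15 FPKM, a log2 ratio of 4.02, and of 2.65 with assembled isoforms.

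Exact zeros made up part of the counts: 49 genes counted as higher in liver were listed at 0 in the embryo library, and 55 counted as lower were listed at 0 in the liver library. Eif5, which promotes the GTPase activity of eIF2, was listed at 42.2 FPKM in the liver library, 36.2 in the other liver library and 0 in the embryo library. Klc1, a kinesin light chain, was listed at 0 in both liver libraries and 33.2 FPKM in the embryo library. Churc1, a zinc finger protein downstream of FGF signalling, was listed at 0, 1.36 and 23.3 FPKM in the same order. An exact 0 in such tables can be a failed estimate. Ddx1, an RNA helicase of tRNA splicing, was listed at 26.9 FPKM in the liver library and 0 in the embryo library, but an assembled isoform over its span held 43.4 FPKM in the embryo library, and over all isoforms its log2 ratio was -0.91. Erh and Cfl2, listed at 9.67 and 2.22 FPKM in the liver library and 0 in the embryo library, had log2 ratios of -0.06 and -0.11 over all isoforms.

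The most abundant gene of the region in both libraries was Gm25679, annotated as a small nuclear RNA, and histone genes made up most of the next 5 in each library. Gm25679 was listed at 60175 FPKM in the liver library and 40293 in the embryo library, a log2 ratio of 0.74. The small nucleolar RNA Gm25776 was listed at 785 FPKM in the embryo library and 0 in both liver libraries. At the other end, 2 tissue-restricted families of the region had no counted member. None of the 25 prolactin family genes, which the placenta expresses, passed 0.264 FPKM in the embryo library and all were listed at 0 in the liver library. None of the 61 vomeronasal receptor genes, which sense pheromones in the nose, passed 0.0165 FPKM in the liver library.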

How the data were processed

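Total RNA was extracted with Trizol, per the labels' protocols. Per the submitters' processing notes, which give no roles, TopHat 1.4.0, Cufflinks 2.2.1 and the mm9 build were used. The authors deposited FPKM per isoform with confidence bounds and a status, per the file headers, beside a deposited coverage value, which was a fixed multiple of FPKM within a library. Strand, assembly settings and the handling of multiply mapped reads were not given in these sources.

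Isoforms with an Ensembl identifier (3461 in the region, 83.1% matched to a GENCODE M21 symbol) were summed per symbol, and bounds combined as the root of summed squares. Isoforms without one held 23.0%, 31.6% and 24.0% of length-weighted FPKM in the liver, other liver and embryo libraries. Python 3.11.15, numpy 2.4.6, pandas 2.3.3 and matplotlib 3.10.9 were used, and the scaling was tested on simulated data. With the other liver library the factor was 1.16. Named genes were the 12 highest and 12 lowest log2 ratios among genes of at least 5 FPKM in either library, above 0 in both, bounds apart and 2-fold different, the 6 highest genes at 0 in each library, the 6 most abundant in each, and list members; 1 list member is not reported by name. Members, lists and the rule were chosen with earlier results of these data known. Alternatives changed the scaling, pseudocount, filter, isoforms and liver library. With 1 library per group no test was possible.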

Additional observations from a re-analysis of the deposited data

How the results depend on the processing

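No paired analysis was possible because each group is 1 library and the labels give no replicate numbers. Each setting was changed singly; the restrictions to protein-coding genes and to genes above 0 in both libraries were chosen after seeing the data. The count of 203 higher genes ran from 125 over isoforms of status OK and 134 with FPKM sums as the scale to 227. The count of 155 lower genes ran from 92 with at least 5 FPKM required, 98 over isoforms of status OK and 100 for genes above 0 in both libraries to 213 with FPKM sums. The 78 genes that differed between the liver libraries were 49 with at least 5 FPKM required, 48 for genes above 0 in both and 129 with a pseudocount of 0.1 FPKM. The Serpina median of 7.29 was 6.37 with FPKM sums, 7.58 with sums without the 20 most abundant genes, 7.04 with the upper quartile, 7.03 over all isoforms, 6.94 with the other liver library, 8.02 and 7.65 with pseudocounts of 0.1 and 0.5 FPKM, and 0.17 with no filter on low values. The patterning median of -2.39 was -1.97 over all isoforms, -3.20 with at least 5 FPKM required, -3.05 for genes above 0 in both, -1.83 with the other liver library, -4.01 and -3.23 with the pseudocounts, -1.92 over status OK and -0.34 with no filter, which admits genes near 0. Directions turned over all isoforms for Cfl2 (-0.11), Ddx1 (-0.91), Eef1e1 (-0.16) and Erh (-0.060), and over status OK for Ifi27 (-0.12), Prkar2b (-2.85), Serpina6 (-1.30), Srsf5 (-2.53), Trip11 (-0.41) and Vrk1 (-1.76). With the other liver library they turned for Rhoj (0.47), Scfd1 (-1.76) and the endothelial median (0.47), and with at least 5 FPKM required for the interferon median (-0.054) and the signalling median (1.03, from -0.99). The muscle, immediate early and proteasome medians, -0.15 to -0.23, also changed sign in some settings, such as 0.38 (muscle) and 0.18 (immediate early) with the other liver library and 1.74 (proteasome) over status OK. Of 159 listed or named genes at 2-fold, 140 stayed 2-fold in their direction over all isoforms, 134 with the other liver library and 131 with FPKM sums. Causes were not tested except where a filter's construction shows it. With 1 library a group, spread between animals is unknown, and the embryo library, with the lowest coverage per FPKM, limits low values most.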

Other observations

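Some of the clearest differences fell outside the gene lists; the genes named here were chosen after their values were seen. Mia2, whose product helps load large cargo into secretory vesicles, stood at 15.2 FPKM in the liver library, 15.9 in the other liver library and 0.536 in the embryo library, a log2 ratio of 3.55. Dld, the dihydrolipoamide dehydrogenase of the pyruvate dehydrogenase complex, was at 34.5, 21.2 and 2.75 FPKM, a log2 ratio of 3.399. Lgals8, a galectin, was at 11.8, 8.39 and 0.433 FPKM, a log2 ratio of 3.32. Arid4a, a chromatin factor that binds the retinoblastoma protein, was at 15.3, 12.3 and 0.183 FPKM, a log2 ratio of 3.94, which was 3.06 over all isoforms and -0.24 over isoforms of status OK. Each was high in both liver libraries and low in the embryo library.

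Genes of basic cell functions also differed. Arf6, a GTPase of membrane traffic, stood at 33.0 FPKM in the liver library, 35.9 in the other liver library and 7.44 in the embryo library, a log2 ratio of 2.17. Psma3, a subunit of the proteasome core, was at 259 FPKM in the liver library and 81.9 in the embryo library but at 8.60 in the other liver library, so the liver libraries lie on opposite sides of the embryo library. On the lower side, Eml1, a microtubule-binding protein, was at 1.48, 3.78 and 15.0 FPKM, a log2 ratio of -2.59, and Sirt5, a mitochondrial deacylase, at 0.952, 1.02 and 5.58 FPKM, a log2 ratio of -1.67.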
